A study of Homo sapiens with 2 samples.

Results

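Messenger RNA levels of 10 genes of innate nucleic acid and Toll-like sensing are described in untreated HEK293T cells. The genes are CGAS, STING1, IFI16, IFIH1, MAVS, TLR3, TLR4, MYD88, IRF3 and IRF7. They are given by name, by a rule that sets no limit on a measured value, and all 10 have a row among the 57736 genes of the RNA-Seq tables. All 10 are protein-coding, out of 19391 protein-coding genes. In the annotation for GRCh37, CGAS carries the older name MB21D1 and STING1 the older name TMEM173.

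HEK293T cells are an established line grown from human embryonic kidney, with the large T antigen of the simian virus SV40. The data comprise 1 group, wild type cells with no treatment named, with 2 replicates of poly(A)+ RNA. No condition could therefore be compared with another, and the comparisons are between genes and between the replicates. The labels do not say that the replicates came from separate cultures, so the spread between them may be technical.

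Cells recognise foreign nucleic acid in several compartments. In the cytosol the enzyme cGAS meets DNA and makes a cyclic dinucleotide that activates STING at the endoplasmic reticulum, whereas MDA5, the product of IFIH1, binds long double-stranded RNA and signals through MAVS on mitochondria. Toll-like receptors (TLRs) read the endosome and the cell surface, most of them through the adaptor MYD88. These routes meet at the transcription factors IRF3 and IRF7, which drive interferon genes, and at NF-kB.

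The libraries held 10593491 and 10104118 estimated counts, in which RSEM divides each ambiguous read between the genes it could come from. A gene with 0 counts may have had up to 3 (a one-sided limit, whereas the two-sided intervals used for counts reach 3.69 from 0), which is 0.283 CPM (counts scaled to the library total) in replicate 1 and 0.297 CPM in replicate 2. These limits and the intervals on counts cover counting error only. TPM (transcripts scaled to a fixed total) is a level scaled by transcript length. Of the blood cell markers reported here CD3E, MS4A1 and ITGAM had 0 counts, PTPRC, carried by all white blood cells, had 1 count in each replicate, and CD68 reached a mean of 0.965 TPM. Of the markers of differentiated kidney epithelium reported here LRP2 was detected, at 9.12 TPM, and UMOD, AQP2, SLC12A3 and SLC34A1 had 0 counts. CUBN had 6 and 8 counts, SLC12A1 had 1 and 2, and NPHS1 had 1 in each replicate. The highest undetected kidney marker was AQP1 at 0.53 TPM.

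The 10 sensing genes fell into 3 levels. IRF3 and MAVS stood above 40 TPM in both replicates, MYD88, STING1, IRF7 and IFIH1 lay between 0.57 and 3.34 TPM, and IFI16, TLR3, CGAS and TLR4 had at most 1 count in a replicate. With a threshold of 1 TPM in both replicates, 5 of the 10 were detected, namely IRF3, MAVS, MYD88, STING1 and IRF7. The same threshold was passed by 63.7% of protein-coding genes and by 27.7% of all genes. The median of the mean TPM was 1.3 for the 10 genes and 6.5 for protein-coding genes. On the log2(TPM + 1) scale the median of the 10 genes in mean TPM differed from that of protein-coding genes by -1.77, and within replicates 1 and 2 by -1.90 and -1.89. In RNA of whole cultures, fewer cells with a transcript and less of it per cell cannot be told apart.

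**Figure D1:**
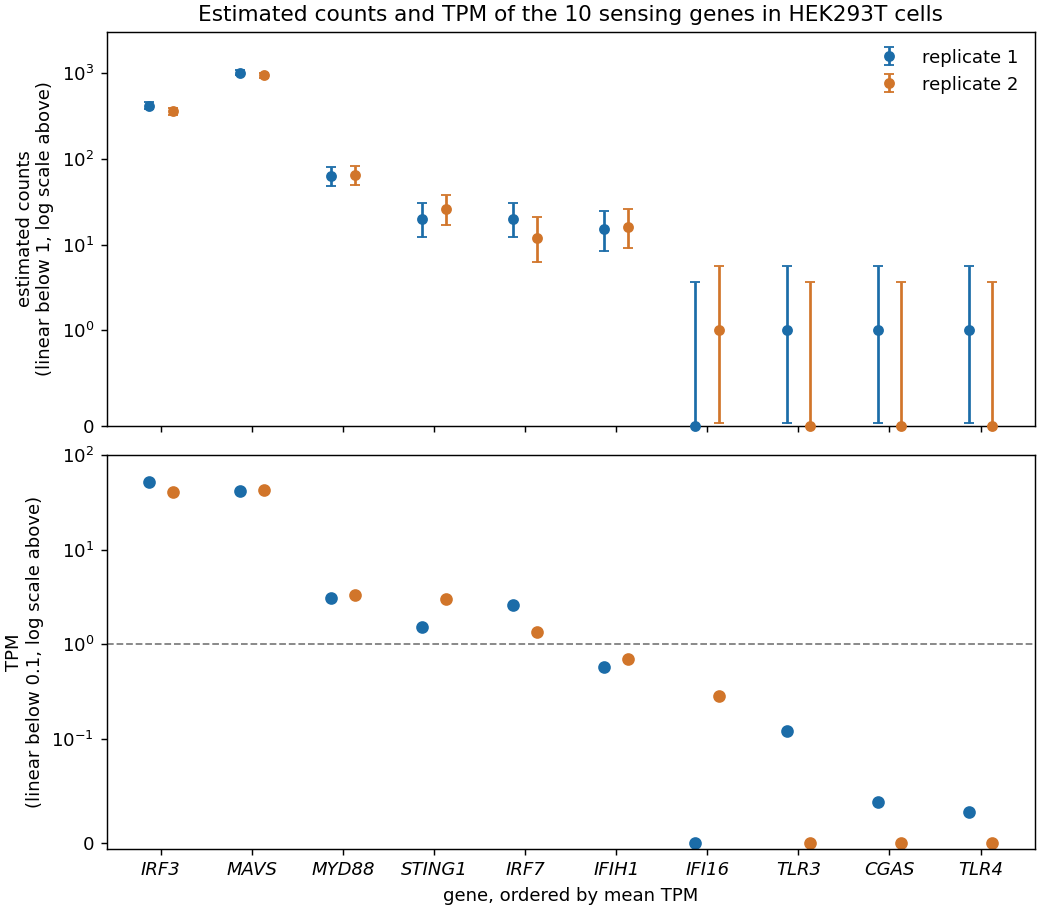
Estimated counts (upper panel, log scale above 1, with exact Poisson 95% intervals) and TPM (lower panel, log scale above 0.1) of each of the 10 sensing genes in replicates 1 and 2, ordered by mean TPM. The dashed line marks 1 TPM. IRF3 and MAVS lie above 40 TPM in both replicates, and each of the 4 genes on the right has 1 count in one replicate and 0 in the other.

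Promoter windows from RefSeq (GRCh38.p14), with the 250 bases before the start site examined, were found for 6 of the genes (7 windows, as IFI16 has a pair). The 120 bases next to the start are shown for the highest and lowest pair of genes by mean TPM among these 6, MAVS and MYD88 against TLR3 and TLR4. All 4 lie on the plus strand and are written 5′ to 3′, with CpG dinucleotides, the sites of DNA methylation, in capitals.
MAVS chr20:3846714-3846833: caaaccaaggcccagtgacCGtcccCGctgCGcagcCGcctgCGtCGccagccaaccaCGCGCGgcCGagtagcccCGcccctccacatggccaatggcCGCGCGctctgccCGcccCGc
MYD88 chr3:38138541-38138660: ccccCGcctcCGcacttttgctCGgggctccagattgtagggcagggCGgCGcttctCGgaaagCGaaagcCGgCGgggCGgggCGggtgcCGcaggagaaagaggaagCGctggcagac
TLR3 chr4:186069036-186069155: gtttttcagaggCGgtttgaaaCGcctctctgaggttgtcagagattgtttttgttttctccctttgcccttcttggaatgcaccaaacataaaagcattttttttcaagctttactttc
TLR4 chr9:117704283-117704402: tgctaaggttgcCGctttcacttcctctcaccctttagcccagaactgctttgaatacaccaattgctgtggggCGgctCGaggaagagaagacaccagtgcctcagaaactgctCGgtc

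In these stretches MAVS had 16 CpG and MYD88 13, against 2 for TLR3 and 4 for TLR4. Over the whole 250 bases MAVS had 28 CpG and 70.4% G and C, and MYD88 had 19 CpG and 64.4%. IFIH1, between these pairs in level, had 12 CpG and 51.2%. TLR3 had 3 CpG and 39.2%, TLR4 had 5 and 46.4%, and the IFI16 windows had 0 and 3, both with 40.4%. The median was 21 CpG (quartiles 15 and 28) upstream of 10019 detected protein-coding genes and 5 (quartiles 2 and 15) upstream of 4974 others. The counts of MAVS and MYD88 lay within the quartiles of detected genes, and those of TLR3, TLR4 and IFI16 were at or below the median of the others.

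**Figure D2:**
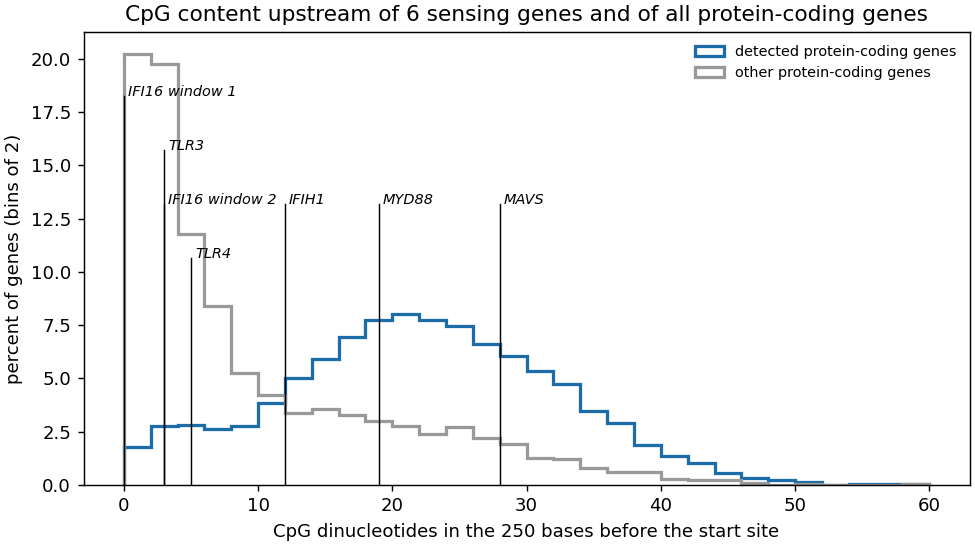
Distribution of CpG counts in the 250 bases before the start site, as a percent of 10019 detected (blue) and 4974 other (grey) protein-coding genes in bins of 2, with black lines at the counts of the 7 windows of 6 sensing genes. MAVS at 28 and MYD88 at 19 lie in the body of the detected genes, and TLR3, TLR4 and IFI16 lie at 5 or fewer.

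Short motifs were searched on both strands of the 250 bases. The core of the interferon-stimulated response element, written GAAANNGAA, which interferon regulatory factors bind, was present in 6.88% of all 35116 windows. It matched 4 times upstream of IFIH1, once upstream of MYD88 and once in the second window of IFI16, and had no match upstream of MAVS, TLR3 or TLR4. The 4 stretches below, with the matches in capitals, were chosen after the matches had been seen. IFIH1 is on the minus strand of its chromosome and the others are on the plus strand.
IFIH1 chr2:162318820-162318859: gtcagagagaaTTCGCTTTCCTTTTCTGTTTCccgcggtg
IFIH1 chr2:162318685-162318714: aagagaatcGAAACAGAAaccaaagtcagg
MYD88 chr3:38138586-38138615: ggcggcgcttctcgGAAAGCGAAagccggc
IFI16 chr1:159009822-159009851: ccaggaaactgTTCATTTTCtctgactaac
In the first of these, 3 matches overlap on the opposite strand, beginning at -164, -158 and -152 counted from the start site. The fourth IFIH1 match begins at -21, that of MYD88 at -61 and that of IFI16 at -74. IFIH1 also held the NF-kB core GGGANTTTC at -75, a motif of 1.12% of windows. The STAT-binding GAS motif TTCNNNGAA (6.57% of windows) matched once in MYD88, at -67 where it overlaps the match at -61, and at -178 and -50 in TLR3. The GC box CCGCCC (42.6% of windows) matched 4 times in MYD88, 2 times in MAVS and once each in IFIH1, TLR3 and TLR4. TATAAA (10.7% of windows) matched only in the second IFI16 window, at -249, and the ETS motif CCGGAAG (8.52% of windows) matched none of the 7. These matches describe letters in the reference and do not show that a factor is bound.

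The DNA-sensing genes CGAS and IFI16 were at the limit of detection, whereas STING1 was low but detected. CGAS (ENSG00000164430, GRCh37 chr6:74123238-74162020, minus strand) had 1 count in replicate 1 (0.04 TPM) and 0 in replicate 2, where 3 counts would be 0.215 TPM. It shares 180 exon bases, 4.31% of its exon sequence, with DDX43 on the opposite strand, which had 0 counts and 1 count. IFI16 (ENSG00000163565, GRCh37 chr1:158969758-159024945, plus strand), a nuclear and cytosolic DNA-binding protein, had 0 counts in replicate 1, where 3 counts would be 0.193 TPM. In replicate 2 its single count gave 0.28 TPM. CGAS and IFI16 cannot be ordered at this depth, and no ratio is given for either. On RSEM's posterior mean TPM, a smoothed estimate above 0 even without reads, IFI16 stood at 1.35 and 1.54, so by that unit it would pass 1 TPM.

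STING1 (ENSG00000184584, GRCh37 chr5:138855118-138862520, minus strand), the adaptor that receives the cGAS product, had 20 and 26 counts (exact Poisson 95% intervals 12.2 to 30.9 and 17.0 to 38.1). Its TPM was 1.53 and 3.01, a mean of 2.27 ± 1.05 (SD, n = 2). The TPM values differed 1.97-fold between replicates although the counts were close. The effective transcript length used for STING1 was 1751 bases in replicate 1 and 1204 in replicate 2, and with 1 mean length for both the TPM became 1.82 and 2.44. Of CGAS, IFI16 and STING1, STING1 alone had more than 1 count in a replicate.

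Among 12 genes of cytosolic DNA sensing, CGAS, STING1 and IFI16 included, 8 were detected, beside the 63.7% of protein-coding genes. The highest were G3BP1, a stress granule protein that binds cGAS, at 177.6 TPM, PQBP1, a cofactor of cGAS, at 98.7 TPM, and DDX41, a helicase, at 64.3 TPM. The undetected genes were CGAS, IFI16, AIM2 (an inflammasome sensor) with 1 count and 0, and ZBP1 (a sensor of left-handed nucleic acid) with 0 counts in both replicates. IFI16 had the highest mean TPM of the undetected genes, but it and AIM2 rest on 1 count each. With 1 mean effective length that count gave 0.108 TPM for IFI16 and 0.168 TPM for AIM2.

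On the RNA-sensing side the adaptor MAVS was abundant and the receptor IFIH1 was not. MAVS (ENSG00000088888, GRCh37 chr20:3827446-3856770, plus strand) had 1017 and 939 counts and 42.28 and 43.10 TPM, a mean of 42.7 ± 0.580 (SD, n = 2). It was above 81.8% of protein-coding genes and had the smallest relative spread of TPM among the 6 genes with more than 3 counts in each replicate. IFIH1 (ENSG00000115267, GRCh37 chr2:163123584-163175194, minus strand) had 15 and 16 counts and 0.57 and 0.69 TPM, a mean of 0.63 ± 0.0849 (SD, n = 2), below 1 TPM in both replicates. The exact Poisson 95% intervals of its counts were 8.40 to 24.7 and 9.15 to 26.0.

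In TPM, MAVS exceeded IFIH1 74.2-fold in replicate 1 and 62.5-fold in replicate 2. RIGI, the sensor of 5′-triphosphate RNA, was named after its values were seen and had 1.51 and 1.62 TPM, and MAVS exceeded it 27.3 ± 0.986-fold (SD, n = 2). RIGI was 2.65-fold and 2.35-fold above IFIH1. Both receptors that signal through MAVS were thus far below it in each replicate. Of 11 genes of cytosolic RNA sensing 9 were detected, beside the 63.7% of protein-coding genes. They were led by ADAR, which edits double-stranded RNA, at 126.3 TPM. TRIM25, a ubiquitin ligase that acts on RIGI, followed at 46.7 TPM, with MAVS as the third. IFIH1 and its regulator DHX58, at 1.26 and 0.88 TPM, were not detected by the threshold.

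The endosomal and surface receptors were at the floor. TLR3 (ENSG00000164342, GRCh37 chr4:186990065-187009227, plus strand), which binds double-stranded RNA in endosomes, had 1 count in replicate 1 (0.12 TPM) and 0 in replicate 2, where 3 counts would be 0.163 TPM. TLR4 (ENSG00000136869, GRCh37 chr9:120466453-120487013, plus strand), the receptor for bacterial lipopolysaccharide, had 1 count in replicate 1 (0.03 TPM) and 0 in replicate 2, where 3 counts would be 0.141 TPM. The TLR4 co-receptor LY96 and the lipopolysaccharide-binding protein LBP had 0 counts in both replicates, and CD14 was the highest undetected cofactor with 1.26 and 0.50 TPM. No gene of the lipopolysaccharide receptor complex among TLR4, LY96 and CD14 was detected.

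All 10 TLR genes were below the threshold that 63.7% of protein-coding genes passed. The highest were TLR6 at 0.47 TPM, TLR5 at 0.355 TPM and TLR1 at 0.15 TPM, and TLR2 had 0 counts. TLR1 and TLR6 are close relatives and their counts were not whole in replicate 1, so their values are uncertain. TLR6 had 4.55 and 15 counts, and with 1 mean effective length its TPM became 0.204 and 0.693. The counts of TLR9, named after its values were seen, were 1.42 and 5.4, so its level is uncertain too. Summed over the 10 receptors the level was 1.21 TPM in replicate 1 and 1.28 TPM in replicate 2, less than that of MYD88 alone.

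MYD88 (ENSG00000172936, GRCh37 chr3:38180043-38184515, plus strand), the adaptor shared by most TLRs and the interleukin-1 receptor family, had 63 and 64 counts. Its TPM was 3.11 and 3.34, a mean of 3.23 ± 0.163 (SD, n = 2), above 43.3% of protein-coding genes. IRAK1, a kinase that acts after it, had 203.2 and 204.9 TPM, 65.4-fold and 61.3-fold above MYD88. This gap did not hold for the related kinases IRAK4 (5.44 and 6.62 TPM) and IRAK2 (3.9 and 2.88 TPM), named after their values were seen. MAVS was 13.6-fold and 12.9-fold above MYD88. Of 11 TLR cofactors and adaptors 7 were detected, a share close to the 63.7% of protein-coding genes. The chaperone HSP90B1 led at 467.7 TPM, followed by CNPY3, which helps to fold TLRs, at 26.4 TPM. SARM1, an adaptor with NAD hydrolase activity, had 11.3 TPM. MYD88 was the median of these 11 genes.

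The transcription factors at the end of the routes differed widely. IRF3 (ENSG00000126456, GRCh37 chr19:50162826-50169132, minus strand), which is kept latent in the cytoplasm until TBK1 phosphorylates it, had 418.25 and 357.21 estimated counts. Its TPM was 52.59 and 40.79, a mean of 46.7 ± 8.34 (SD, n = 2), the highest of the 10 genes and above 83.3% of protein-coding genes. IRF7 (ENSG00000185507, GRCh37 chr11:612553-615983, minus strand), which interferon induces in many cells, had 20 and 12 counts (exact Poisson 95% intervals 12.2 to 30.9 and 6.20 to 21.0). Its TPM was 2.59 and 1.35, a mean of 1.97 ± 0.877 (SD, n = 2). IRF3 exceeded IRF7 20.3-fold in replicate 1 and 30.2-fold in replicate 2.

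IRF3 was the only one of the 10 genes whose counts were not whole, with a posterior SD of 3.98 and 2.81 counts, and the other 9 had a posterior SD of 0. It shares 734 exon bases, 19.3% of its exon sequence, with BCL2L12 on the opposite strand, which had 538.75 and 465.79 counts and a posterior SD of 4.04 and 2.86. The pair summed to 957 and 823 whole reads, of which 43.7% and 43.4% were assigned to IRF3. The sources used here do not give the strand setting of the counting, so the split between IRF3 and BCL2L12 is uncertain. IFI16 shares exon bases with PYDC5, and TLR4 with the gene ENSG00000285082, neither of which was analysed here. Among 9 interferon regulatory factors 6 were detected, a share close to the 63.7% of protein-coding genes. After IRF3 came IRF9 at 9.17 TPM and IRF8 at 4.97 TPM, and IRF5 at 0.515 TPM was the highest of the undetected.

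In order of mean TPM the genes ran IRF3, MAVS, MYD88, STING1, IRF7, IFIH1, IFI16, TLR3, CGAS and TLR4. The replicate ranges of IRF3 and MAVS overlapped, as MAVS was higher in replicate 2 and IRF3 in replicate 1. With 1 effective length per gene IRF3 was above MAVS in replicate 1 (49.3 against 43.8 TPM) and replicate 2 (43.4 against 41.6 TPM). The ranges still overlapped. Between IRF3 and MAVS the authors' intervals overlapped in replicate 2 but not in replicate 1. MAVS and MYD88 were clearly apart, by 13.2-fold in mean TPM. The lowest MYD88 value, 3.11 TPM, was just above the highest STING1 value, 3.01 TPM, and the authors' intervals for these genes overlapped in both replicates. STING1 and IRF7 overlapped, and IRF7 and IFIH1 did not (3.13-fold in mean TPM). The lowest IFIH1 value, 0.57 TPM, was above the highest IFI16 value, 0.28 TPM. The authors' intervals for IFIH1 and IFI16 overlapped in both replicates. The values of IFI16, TLR3, CGAS and TLR4 all overlapped. Rank among the 4 lowest genes therefore rests on single reads.

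The replicates were compared to see how far a single value can be trusted. An exact two-sided binomial test on rounded counts against TMM-scaled library sizes called 3.88% of 17920 genes, those with 10 or more counts over both libraries, at a Benjamini-Hochberg adjusted p under 0.05. Of the sensing genes 6 entered the test and 0 were called, and 0 had an unadjusted p under 0.05. STING1, IRF7 and IFIH1 had at most 26 counts in a replicate, so for them 0 calls do not show that the replicates were equal. The lowest adjusted p in this exact test was 0.612, for IRF3, whose log2 ratio of counts (replicate 2 over 1) was -0.15. The log2 ratio was 0.45 for STING1 (adjusted exact p = 0.773) and -0.64 for IRF7 (adjusted exact p = 0.699). The others lay between -0.04 and 0.17. This test compares these libraries and says nothing of conditions.

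The TPM ratio was wider than the count ratio for IRF3, STING1, IRF7 and IFIH1. On the log2 scale it was 0.98 for STING1, -0.94 for IRF7, -0.37 for IRF3 and 0.28 for IFIH1. With 1 effective length per gene in both replicates these became 0.42, -0.69, -0.19 and 0.14. For MAVS the sign turned, from -0.04 in counts to 0.03 in TPM. Among 1750 protein-coding genes with a summed count from 10 to 50, 44.9% differed over 1.5-fold in TPM and 35.4% in scaled counts. The median absolute log2 ratio of these genes was 0.51 in TPM, below that of STING1 and IRF7, and 0.41 in scaled counts, between those of IFIH1 and STING1. The tables list 31 transcripts for IRF3, 17 for IRF7, 15 for STING1, 11 for MYD88 and 3 each for MAVS and IFIH1.

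**Figure D3:**
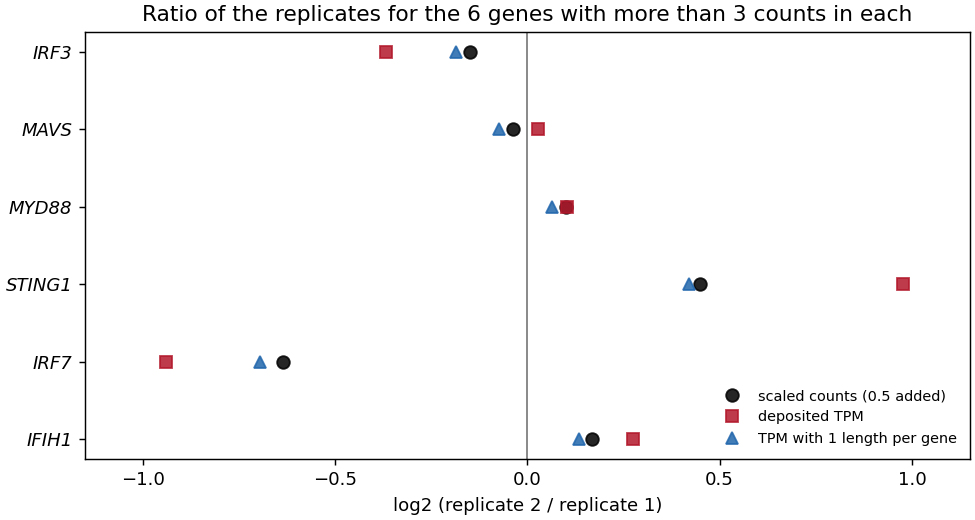
Log2 ratio of replicate 2 over replicate 1 for the 6 sensing genes with more than 3 counts in each, from scaled counts (black), deposited TPM (red) and TPM with 1 length per gene (blue). STING1 at 0.98 and IRF7 at -0.94 in deposited TPM move toward 0, to 0.42 and -0.69, with 1 length per gene.

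The steps between sensors and interferon were present around the 10 genes. Of 16 signalling kinases, ligases and their regulators with a row 15 were detected, beside the 63.7% of protein-coding genes. IRAK1 led, followed by TAB2, a partner of the kinase TAK1, at 63.7 TPM. CHUK, a kinase of the NF-kB inhibitor, had 32.3 TPM. Also detected was TBK1, the kinase that STING and MAVS share, at 20.58 and 19.75 TPM. TBK1 was named after its values were seen, and it stood 13.5-fold and 6.56-fold above STING1. The exception was IRAK3, an inhibitory relative of IRAK1, at 0.025 TPM, and IKBKE and IKBKG were not analysed here. All 5 NF-kB subunits were detected, with RELA at 76.3 TPM, NFKB1 at 21.0 TPM and NFKB2 at 16.6 TPM.

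Interferon genes themselves were not detected in any of 10 cases, beside the 63.7% of protein-coding genes that passed the same threshold. IFNA1, IFNA2, IFNB1, IFNW1, IFNG, IFNL1, IFNL2 and IFNL3 had 0 counts in both replicates, and IFNK, the highest, had 0.125 TPM from 1 count in each. By contrast all 11 receptor and JAK-STAT genes were detected, led by TYK2 at 73.7 TPM, IFNGR2 at 56.4 TPM and JAK1 at 42.4 TPM. IFIH1, IFI16 and IRF7 are themselves known to be induced by interferon. Of 25 other interferon-stimulated genes 11 were detected, with USP18, which removes ISG15 from proteins, at 17.9 TPM, IFIT5 at 14.0 TPM and HERC5 at 12.7 TPM. MX2, OAS1, IFI44, XAF1 and CXCL10 had 0 counts, and BST2, at 0.675 TPM, was the highest of the undetected.

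Over these pathway lists together, with each gene once and the 10 genes included, 71 of 119 genes were detected, 17 had 0 counts in both replicates, and 4 of the 82 genes tested differed between replicates. The shares over all features were 63.7% of protein-coding genes detected and 3.88% of tested genes differing. The 4 were G3BP1, TAB3, JAK2 and TICAM2, none of them among the 10 sensing genes. G3BP1 and TAB3 differed by log2 ratios of 0.13 and 0.31 (adjusted exact p = 0.00708 and 0.0269). JAK2 had 35 and 65 counts (adjusted exact p = 0.0359) but 2.24 and 2.15 TPM, with effective lengths of 2098 and 4219 bases. With 1 mean effective length for both replicates its TPM became 1.49 and 2.86. TICAM2, the adaptor that links TLR4 to interferon genes, went from 0 to 18.88 counts between replicates 1 and 2 (adjusted exact p = 0.000122), but the posterior SD of these counts was 10.9 and 12.8.

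**Figure D4:**
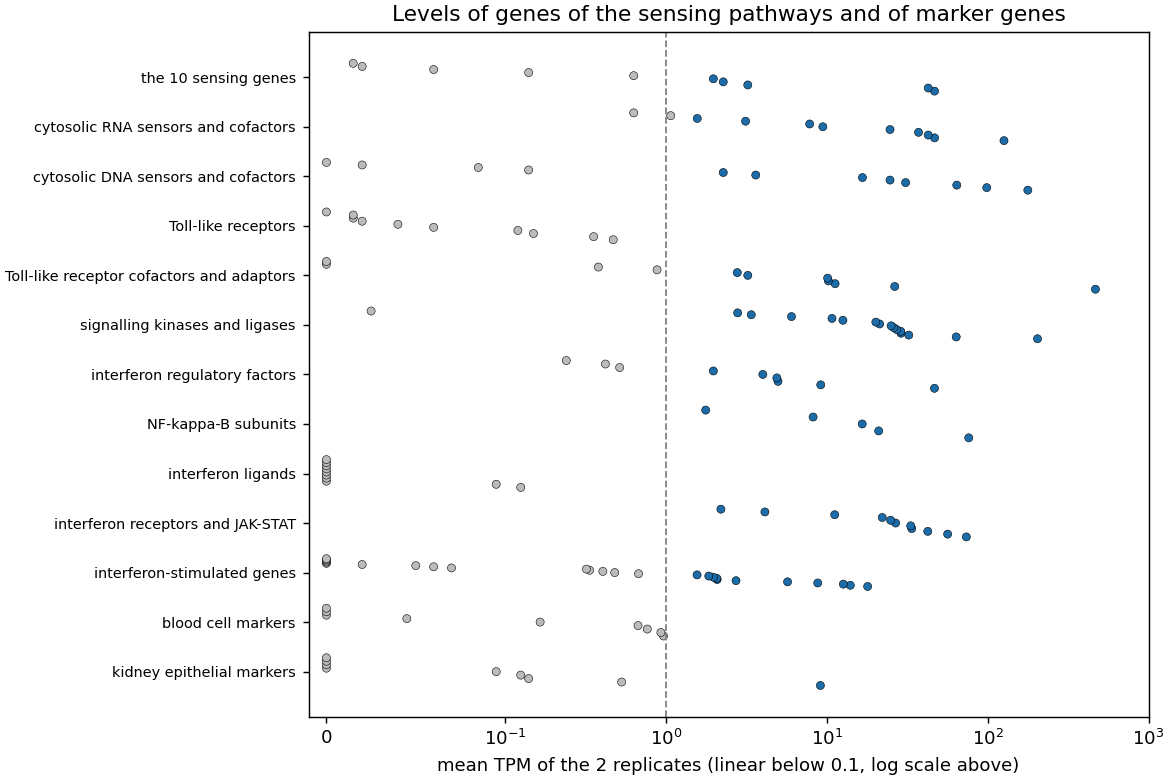
Mean TPM over the 2 replicates (log scale above 0.1) of the 10 sensing genes, of 10 pathway lists and of the blood cell and kidney epithelial markers reported here, 1 point a gene. Blue points reached 1 TPM (dashed line) in both replicates and grey points did not, such as DHX58, whose mean of 1.07 TPM hides a replicate at 0.88. No TLR gene or interferon gene is blue, and all 11 receptor and JAK-STAT genes are.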

How the data were processed

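Poly(A)+ RNA of HEK293T cells was sequenced in 2 libraries with 50-base reads on an Illumina HiSeq1500. Per the submitters' processing notes the authors used Trimmomatic 0.36, STAR 2.6.1c and RSEM 1.3.1 with the GRCh37.p13 genome. The methods of the study name featureCounts and Ensembl release 87, but the deposited columns are those of RSEM and were read as such. Estimated counts (expected counts) as deposited share a read among the genes it fits. TPM and FPKM values were made by the authors and divide by an effective length that RSEM sets in each library from the transcripts it assigns reads to. The deposited posterior SDs and credibility bounds are scores that describe how sure RSEM was of each value. A table for the pooled reads holds the authors' pooled values.

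Symbols, types and coordinates came from GENCODE release 44 on GRCh37, which matched 96.1% of identifiers. A gene was detected when both replicates reached 1 TPM. Counts were rounded for the exact two-sided binomial test (scipy 1.17.1), scaled by TMM (edgeR 4.0.16, R 4.3.3) and adjusted by Benjamini-Hochberg over genes with 10 or more counts in all. For log2 ratios 0.5 was added to each count, and levels were set as log2(TPM + 1). The test was checked on simulated counts with counting error alone, and with changes only in genes of higher count than STING1, IRF7 and IFIH1. That check cannot show how the test behaves where reads are shared between genes, or how well it finds changes at lower counts. Promoter windows came from RefSeq tables, and protein sequences were not used here.

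The 10 genes and the lists were chosen with earlier results of these data known. Genes named from a list were the 3 highest by mean TPM, those with 0 counts, the highest undetected and those that differed between replicates, besides genes that overlap a member. From each of the blood and kidney marker lists 1 gene is not reported here. Alternatives were other thresholds, units, pseudocounts, normalizations and filters, and leaving out a replicate. The use of 1 mean effective length was added after seeing the data.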

Additional observations from a re-analysis of the deposited data

How the results depend on the processing

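Of the 10 sensing genes 5 were detected as reported, 2 with a TPM of at least 5, and 4 to 6 under the other thresholds and units. The share of protein-coding genes was 63.7% as reported, 51.7% at 5 TPM and 74.1% at 0.1 TPM. It was 61.5% on FPKM and 74.2% on posterior mean TPM. The 0 calls among them between replicates held under every alternative test. Among the pathway genes 4 differed, but 2 with posterior mean counts and 0 among genes with whole counts only, where 4 had an unadjusted p under 0.05 in the binomial test. The difference of the medians from protein-coding genes, -1.77, was -2.42 and -2.53 with pseudocounts of 0.1 and 0.01, -1.59 on FPKM, -1.31 on posterior mean TPM, -3.34 against detected genes, and between -1.90 and -1.89 with 1 replicate left out. The log2 ratio of MAVS turned from -0.04 to 0.0277 on TPM and was never called. Mean TPM moved by more than the replicate spread for all 10 genes with posterior mean TPM and for 0 with FPKM, pooled reads or 1 length. With a replicate left out the mean of 2 cannot move by more than their SD. With posterior means STING1 (4.91 TPM) passed MYD88 (4.77 TPM), IFI16 (1.45 TPM) passed IFIH1 (0.985 TPM), and IFI16 was detected. Counts of detected genes in some lists also moved, for interferon-stimulated genes from 11 to 4 at 5 TPM and to 20 on posterior means, for TLRs from 0 to 2 at 0.1 TPM and on posterior means, for interferon regulatory factors from 6 to 2 at 5 TPM, and for interferon ligands from 0 to 1 at 0.1 TPM. The cause of these changes was not tested. No paired analysis was possible because there is only 1 group, and with a replicate left out the binomial test has no value. Depth limits IFI16, TLR3, CGAS and TLR4, whose levels rest on 1 read each.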

Other observations

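The deposited TPM of several sensing genes lay below the 95% interval deposited beside it. Among the 6 genes with 10 or more counts in each replicate this held in both replicates for IRF3, MYD88, STING1 and IRF7, whereas MAVS and IFIH1 lay inside in both. STING1, for example, had 1.53 TPM with an interval from 2.56 to 5.74 in replicate 1, and 3.01 TPM with one from 3.84 to 7.83 in replicate 2. IRF7 had 2.59 TPM with an interval from 2.85 to 6.08 in replicate 1, and IRF3 had 52.59 TPM against a lower bound of 54.2. Among all protein-coding genes, 20.6% and 21.0% of those with 10 to 100 counts and 4.48% and 5.09% of those with more lay below their interval in replicates 1 and 2. Values at 0 lie below by construction, and those of 1 read are rounded too coarsely to be placed for CGAS.

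The length that RSEM gave to a gene with a single read can be set beside the lengths of its annotated transcripts. These transcripts are those of the GENCODE annotation used here, whereas the methods of the study name an Ensembl release. The IFI16 read in replicate 2 was given a length of 546 bases, which among the annotated transcripts is that of IFI16-213, the shortest of the 13 transcripts found in the annotation. The TLR3 read in replicate 1 was given 1156 bases, the length of TLR3-205, a transcript annotated as non-stop decay and the shortest of the gene. The lengths given to the CGAS read, 3182 bases, and to the TLR4 read, 3908 bases, were those of 0 transcripts of their genes in the GENCODE annotation. Whether the Ensembl release named by the study holds transcripts of these lengths was not tested. A count of 1 gave 0.28 TPM for IFI16 and 0.04 TPM for CGAS.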
